A study of Mus musculus with 40 samples.

Results

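The interferon-γ signaling core is described here as the 9 genes of its shortest path from ligand to response: the ligand Ifng, the receptor chains Ifngr1 and Ifngr2, the receptor-bound kinases Jak1 and Jak2, the transcription factors Irf1 and Irf8, the feedback inhibitor Socs1 and the effector Ido1. They were taken by symbol from a table of 54087 genes, and all 9 were among the 14760 genes that passed a filter on low counts. Tumor RNA came from 40 BALB/c mice, 6 to 12 weeks old at injection and 5 in each of 8 groups, that had received 1000000 CT26 cells (a BALB/c colon carcinoma line) under the skin, had mAbs injected intraperitoneally on days 6, 9 and 12, and had tumors collected on day 13. One group received the isotype control motavizumab as a mIgG2a. Single mAbs were anti-GARP:TGF-β1 clone 58A2 as a mIgG2a able to engage Fcγ receptors (WT), the same clone with an Fc-dead constant region (FcD), anti-TGF-β clone 1D11, which neutralizes all TGF-β isoforms, and anti-PD-1 in an Fc-silent format. The last 3 groups received anti-PD-1 together with anti-GARP:TGF-β1 WT (the WT combination), with anti-GARP:TGF-β1 FcD (the FcD combination) or with anti-TGF-β (the anti-TGF-β combination). All tumors were subcutaneous grafts of 1 cell line, the combinations shared their control groups, and each tumor was 1 bulk library.

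Interferon-γ is secreted mainly by activated T cells and NK cells. It binds a receptor made of IFNGR1, which holds JAK1, and IFNGR2, which holds JAK2, and the kinases start the signal. Promoters of responsive genes, among them that of Irf1, hold GAS elements, and IRF1 and IRF8 then act on IRF elements of further genes. SOCS1 binds the kinases and shuts the signal off, and IDO1 breaks down tryptophan, which restrains T cells. In tumors the pathway raises antigen presentation and draws in T cells, and it also induces inhibitors such as PD-L1.

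Promoter sequences of 4 members that the results turn on are given first, to show where letters of the motifs named above occur in them. RefSeq windows of 300 bases (GRCm38.p6, 250 before and 50 after the transcription start, written 5′ to 3′ on the gene's strand) were found for 8 of the 9 members, and Ido1 had none. They were searched on both strands for GAS elements (TTCNNNGAA, which reads the same on both strands) and for IRF elements (GAAA, any 2 bases, GAAA), 2 motifs whose matches may overlap. Matches are in capitals, and overlapping matches run together. The windows are Ifng at chr10:118440796-118441095 (plus strand), Irf1 at chr11:53769764-53770063 (plus strand), Irf8 at chr8:120736108-120736407 (plus strand) and Socs1 at chr16:10785487-10785786 (minus strand).
Ifng: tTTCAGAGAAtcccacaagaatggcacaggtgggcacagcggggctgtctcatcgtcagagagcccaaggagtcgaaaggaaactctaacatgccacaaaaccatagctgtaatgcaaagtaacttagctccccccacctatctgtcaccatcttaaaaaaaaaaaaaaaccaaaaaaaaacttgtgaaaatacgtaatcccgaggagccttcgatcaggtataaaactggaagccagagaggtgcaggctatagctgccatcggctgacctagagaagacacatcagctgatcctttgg
Irf1: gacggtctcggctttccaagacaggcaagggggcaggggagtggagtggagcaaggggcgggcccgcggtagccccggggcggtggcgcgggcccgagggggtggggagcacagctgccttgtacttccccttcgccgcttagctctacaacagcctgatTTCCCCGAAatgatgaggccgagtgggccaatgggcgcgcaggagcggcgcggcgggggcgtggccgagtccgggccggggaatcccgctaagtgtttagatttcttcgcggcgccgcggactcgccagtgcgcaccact
Irf8: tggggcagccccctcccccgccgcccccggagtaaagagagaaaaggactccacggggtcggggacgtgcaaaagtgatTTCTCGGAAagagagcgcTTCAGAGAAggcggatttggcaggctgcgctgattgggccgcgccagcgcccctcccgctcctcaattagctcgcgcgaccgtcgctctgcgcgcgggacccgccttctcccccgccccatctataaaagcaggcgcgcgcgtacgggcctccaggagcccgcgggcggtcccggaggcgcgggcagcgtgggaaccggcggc
Socs1: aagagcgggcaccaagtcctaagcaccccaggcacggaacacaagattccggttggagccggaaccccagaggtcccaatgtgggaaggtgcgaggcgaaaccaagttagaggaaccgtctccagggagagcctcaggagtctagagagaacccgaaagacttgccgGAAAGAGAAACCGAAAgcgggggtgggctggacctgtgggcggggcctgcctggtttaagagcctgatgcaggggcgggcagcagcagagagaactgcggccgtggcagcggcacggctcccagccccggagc
Irf1 held 1 GAS match, TTCCCCGAA, 90 to 82 bases before its start. Irf8 held 2, TTCTCGGAA and TTCAGAGAA, and Ifng held 1 at the far end of its window. Socs1 held no GAS match but 2 overlapping IRF matches, GAAAGAGAAA and GAAACCGAAA, between 83 and 68 bases before its start. Among all 32851 windows of this length, 8.30% held a GAS match and 3.44% an IRF match. Windows of Ifngr1, Ifngr2, Jak1 and Jak2 held neither motif, and second windows of Irf1 and Irf8 at other starts held neither. A match describes letters only.

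Totals of counts ran from 11931730 to 20680548 per tumor (median 14030511). Ifng rested on 2 to 91 counts per tumor and Ido1 on 6 to 916, whereas each other member had at least 194 counts in every tumor, and fold changes of Ido1 and Ifng had the largest standard errors of the 9. Some libraries stood apart by their cell markers. WT combination tumor 5 had the highest summed CPM (counts per 1000000 after TMM scaling) of macrophage markers (7970), T cell markers (299) and endothelial markers (472) of all tumors. FcD combination tumor 4 had the highest epithelial markers (342, against a median of 16.3), keratinocyte markers (31.5, against a median of 5.02) and adipocyte markers (614, against a median of 28.4). Anti-PD-1 tumor 2 had the highest skeletal muscle markers (159, against a median of 2.29) and keratinocyte markers of 27.6 (median 5.02). Libraries numbered 41 to 60 carried Y-linked transcripts (Ddx3y at 6.86 to 33.4 CPM) and at most 0.428 CPM of Xist, whereas libraries 61 to 80 had Ddx3y at 0 and Xist at 62.7 to 791 CPM. The labels do not give the sex of the mice. Wherever the 2 library sets are compared below, a difference in sex and a difference between libraries cannot be told apart. The T cell markers Cd3d, Cd3e and Cd3g and all macrophage and endothelial markers listed were counted in all 40 tumors. The epithelial list, named carcinoma epithelium (Krt8, Krt18, Epcam, Cdh1), summed to only 4.7 CPM in the lowest tumor, and 2 of its 4 genes were counted in every tumor. Whether its transcripts came from the carcinoma cells was not tested.

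Levels of the members differed widely. Per kilobase of exon, the median over the 40 tumors was 85.8 CPM for Irf1, 23.8 for Ifngr1, 18.2 for Ifngr2, 18.01 for Jak1, 17.6 for Jak2, 13.2 for Irf8, 10.9 for Socs1, 4.01 for Ido1 and 1.30 for Ifng. The receptor and kinase transcripts were thus within a narrow band on this per-length scale, with Irf1 above and the ligand far below. The spread among tumors ran in another order. Ido1 varied 155-fold from the lowest to the highest tumor and Ifng 38.4-fold (CPM), Irf8 5.66-fold and Irf1 4.93-fold, but Ifngr2 only 1.85-fold and Jak2 1.75-fold. Within treatment groups, the standard deviation of log2 CPM was 0.98 for Ido1, 0.76 for Ifng, 0.42 for Irf1, 0.40 for Irf8, 0.34 for Socs1, 0.31 for Ifngr1, 0.29 for Jak1, 0.19 for Jak2 and 0.18 for Ifngr2.

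Ifng (ENSMUSG00000055170, chr10:118441046-118445892 in GRCm38) was highest in the 3 groups that received a combination. Its level was 1.61, 1.57, 1.46, 0.786 and 0.554 CPM in the 5 isotype tumors. It was 2.99, 2.21, 2.85, 1.75 and 5.67 CPM with the WT combination, 3.32, 2.56, 3.85, 3.51 and 3.58 CPM with the FcD combination, and 3.26, 3.77, 2.95, 2.06 and 4.51 CPM with the anti-TGF-β combination. All 15 combination tumors lay above all 5 isotype tumors. Of all genes tested, 1.35% (WT), 1.96% (FcD) and 1.73% (anti-TGF-β) had all 5 tumors of a combination above all isotype tumors. The share for 15 against 5 tumors was not determined. With anti-PD-1 alone, in contrast, the 5 tumors ran from 0.148 to 3.45 CPM (median 1.23) and overlapped with every other group. Means were 1.41 ± 0.39 CPM for anti-GARP:TGF-β1 WT, 0.990 ± 0.50 for FcD, 1.78 ± 0.85 for anti-TGF-β and 1.39 ± 1.35 for anti-PD-1 (SD, n = 5 each), beside 1.20 ± 0.49 in the isotype group. In order, the group means fell from the FcD combination (3.36) over the anti-TGF-β combination (3.31) and the WT combination (3.09) to anti-TGF-β alone, and every 2 neighbours in this order overlapped. In bulk tumors, more cells that make a transcript and more transcript per cell cannot be told apart.

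**Figure D1:**
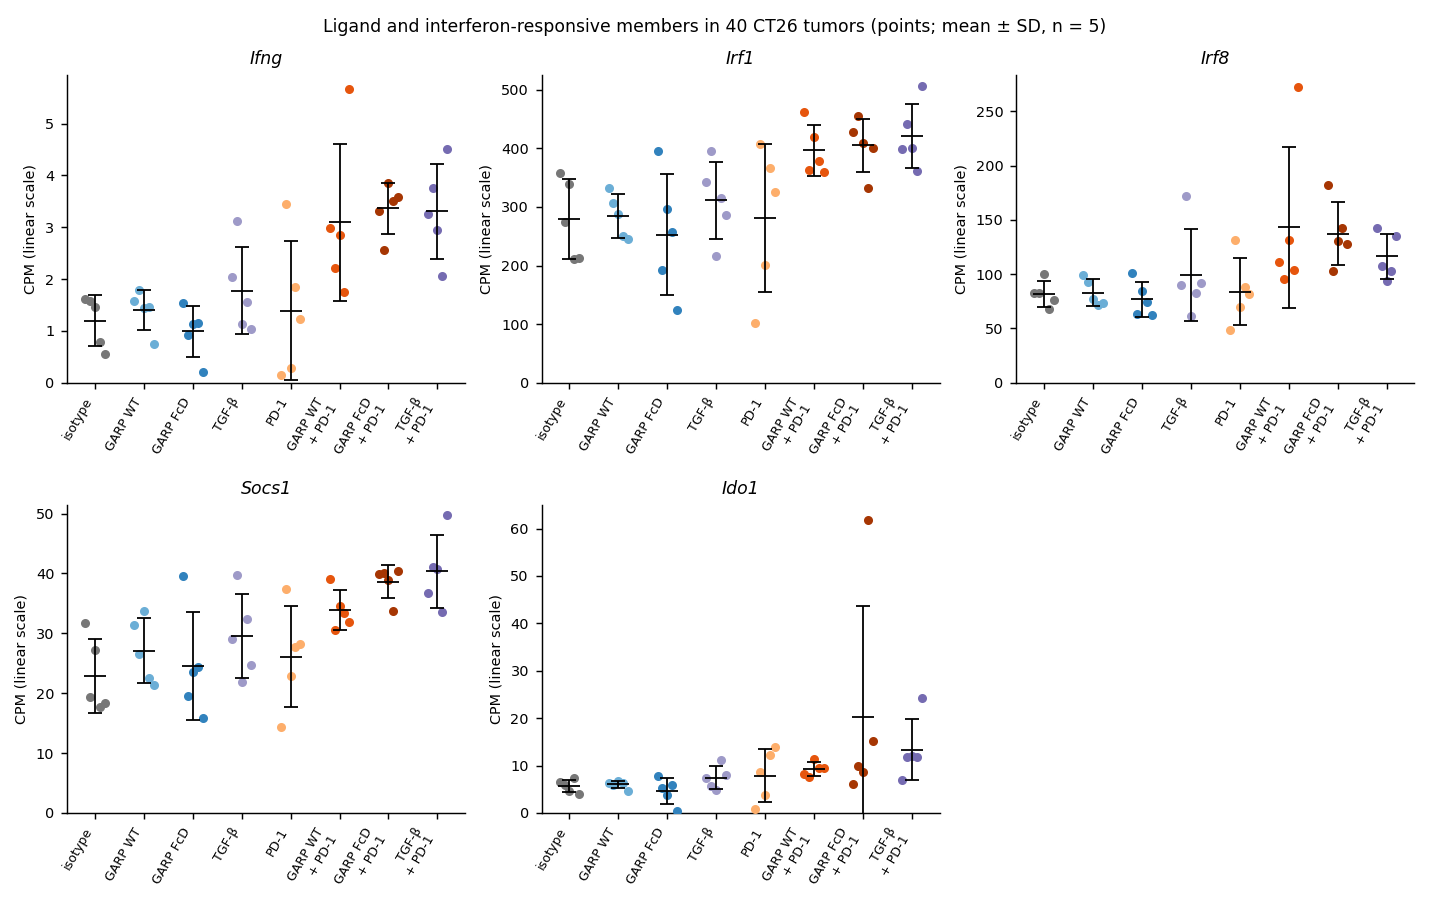
CPM on a linear axis of Ifng, Irf1, Irf8, Socs1 and Ido1 in each of 40 tumors (points) by treatment group, with bars for mean ± SD (n = 5; bars are cut at 0). The 15 combination tumors sit above the isotype tumors for Ifng, FcD combination tumor 4 stands alone at 61.8 CPM for Ido1, and anti-PD-1 tumors are spread over the range of the other groups.

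Each treatment was first set against the isotype control. In edgeR's quasi-likelihood test, 0 members and 0 genes of the table passed an adjusted p of 0.05 in any of these 7 comparisons, and DESeq2 called 1 member, Socs1, with the anti-TGF-β combination (adjusted p = 0.0273). Fitted on those 2 groups alone, edgeR called 3 members in the FcD combination, Ifng, Irf8 and Socs1. With the library set as a covariate it called 17 genes and 0 members there. In the anti-TGF-β combination it called 730 genes and 1 member without isotype tumor 3, and 2 members without tumor 1 of that combination. At an unadjusted p under 0.05, each combination had 5 of 9 members higher and 0 lower, where the share of all genes tested that were higher came to 13.2% (WT), 10.7% (FcD) and 8.49% (anti-TGF-β). In the WT combination these were Ifng (log2 fold change 1.36 ± 0.47 SE), Irf8 (0.80 ± 0.25), Socs1 (0.56 ± 0.21), Irf1 (0.51 ± 0.25) and Jak1 (0.45 ± 0.18). In the FcD combination they were Ido1 (1.84 ± 0.55), Ifng (1.48 ± 0.48), Socs1 (0.75 ± 0.21), Irf8 (0.74 ± 0.25) and Irf1 (0.54 ± 0.25). In the anti-TGF-β combination they were Ifng (1.46 ± 0.48), Ido1 (1.23 ± 0.54), Socs1 (0.82 ± 0.21), Irf1 (0.60 ± 0.25) and Ifngr2 (0.27 ± 0.11). All 5 tumors lay above all 5 isotype tumors for 3 of 9 members in each combination, against 1.35% of all genes with the WT, 1.96% with the FcD and 1.73% with the anti-TGF-β combination. Those were Ifng, Irf1 and Ido1 for WT, Ifng, Irf8 and Socs1 for FcD, and Ifng, Irf1 and Socs1 for anti-TGF-β. The count of 5 at an unadjusted p under 0.05 fell to 3 without tumor 5 of the WT combination, and to 3 in the anti-TGF-β combination without its tumor 5 or isotype tumor 5. Within libraries 41 to 60 and 61 to 80, respectively, log2 differences of Ifng were 0.65 and 1.67 (WT), 0.95 and 1.87 (FcD) and 1.08 and 1.65 (anti-TGF-β), and those of Ido1 were 0.36 and 0.94, 0.38 and 2.53, and 0.54 and 1.51.

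Cell marker lists moved with the members in these comparisons with isotype. At an unadjusted p under 0.05, 6 of 8 macrophage markers (median log2 fold change 0.76), 4 of 4 cDC1 markers (1.36) and 3 of 5 endothelial markers (0.79) were higher with the WT combination. In FcD combination tumors, 4 of 4 adipocyte markers (3.30), 4 of 4 epithelial markers (2.65), 3 of 4 cDC1 markers (1.18) and 3 of 4 neutrophil markers (1.75) were higher. So were 2 of 4 keratinocyte markers (2.31) and 2 of 8 macrophage markers (0.56). Tumor 4 carried much of the epithelial value (342 CPM), and the group median of 11.7 CPM lay below that of isotype tumors (17.5 CPM). With the anti-TGF-β combination, 6 of 6 B cell markers (3.12), 3 of 4 neutrophil markers (1.94) and 2 of 4 NK markers (0.51) were higher. Tumor 5 of that group had B cell markers at 95.6 CPM, whereas the group median was 5.44 CPM and that of isotype tumors 3.68 CPM. T cell markers were higher in 2, 1 and 1 of 8 cases, in that order. The part of these cells in the members' values was not tested.

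With single mAbs no member passed against the isotype control. With an unadjusted p under 0.05, 0 of 9 members were higher or lower with anti-GARP:TGF-β1 WT, FcD, anti-TGF-β or anti-PD-1, where 0.583%, 0.264%, 1.77% and 0.603% of all genes were higher. For anti-TGF-β the count became 1 without isotype tumor 1 or anti-TGF-β tumor 3. Log2 fold changes of the members ran from -0.14 to 0.24 with WT, from -0.29 to 0.10 with FcD, from 0.05 to 0.56 with anti-TGF-β and from 0.01 to 0.47 with anti-PD-1. The 5 anti-PD-1 tumors hid a wide range, since tumor 1 had the lowest Ifng, Irf1, Irf8 and Socs1 of all 40 tumors (0.148, 103, 48.2 and 14.3 CPM), whereas tumor 2 had 3.45, 408, 132 and 37.4 CPM, within the range of the combination tumors. Tumor 2 was also the one with skeletal muscle markers at 159 CPM, and all 4 tested muscle markers were higher with anti-PD-1 than with isotype at an unadjusted p under 0.05. Between anti-PD-1 and isotype, the directions of all members but Ifngr1 and Ifngr2 differed between library sets. Log2 differences in libraries 41 to 60 and 61 to 80 were -1.19 and 0.71 for Ifng, -0.62 and 0.48 for Irf1, and -1.02 and 1.31 for Ido1. For Ifngr1 they were 0.11 and 0.07, and for Ifngr2 0.20 and 0.00.

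Combinations were then compared with anti-PD-1 alone. Of the 9 members, those at an unadjusted p under 0.05 numbered 3 in the WT combination (Ifng, Irf8 and Jak1; 11.2% of all genes were higher), 5 in the FcD combination (Ifng, Irf8, Socs1, Ido1 and Irf1; 6.46%) and 3 in the anti-TGF-β combination (Ifng, Socs1 and Irf1; 7.0%), and 0 members passed an adjusted p of 0.05 in edgeR or DESeq2. Log2 fold changes of Ifng were 1.14 ± 0.47, 1.26 ± 0.47 and 1.24 ± 0.47 (SE) in that order. Without WT combination tumor 5 the first was 0.81 ± 0.48. The 3 members of the WT combination became 1 without anti-PD-1 tumor 1 or 3 or WT combination tumor 5, 0 without both WT combination tumor 5 and FcD combination tumor 4, and 5 without anti-PD-1 tumor 2. The 5 of the FcD combination became 3 without anti-PD-1 tumor 1 and 6 without tumor 2, and the 3 of the anti-TGF-β combination became 2 without anti-PD-1 tumor 1 or 3 or its own tumor 5, and 4 without anti-PD-1 tumor 2 or its own tumor 3. Anti-PD-1 tumors 1 and 3, with the lowest Ifng (0.148 and 0.285 CPM), were in libraries 41 to 60. Within libraries 41 to 60 and 61 to 80, Irf1 differed from anti-PD-1 alone by 1.01 and 0.16 (WT), 1.08 and 0.08 (FcD) and 1.04 and 0.28 (anti-TGF-β) on the log2 scale, and Ifng by 1.84 and 0.96, 2.14 and 1.16, and 2.26 and 0.94. Fitted on only the groups compared, the counts were 1 (WT), 2 (FcD) and 2 (anti-TGF-β). All 4 tested muscle markers were lower in each combination than with anti-PD-1 alone at an unadjusted p under 0.05. By the same measure, 7 of 8 T cell markers (median log2 fold change 1.61), 7 of 8 macrophage markers (0.80), 4 of 4 cDC1 markers (1.33) and 2 of 4 NK markers (0.74) were higher in the WT combination. In FcD combination tumors 3 of 4 cDC1 markers (1.14), 2 of 4 epithelial markers (2.36, with tumor 4 at 342 CPM), 2 of 4 neutrophil markers (1.08) and 1 of 8 macrophage markers (0.59) were higher. With the anti-TGF-β combination 2 of 4 NK markers (0.70) were higher, and 0 T cell markers were in either. The part of these markers in the members' values was not tested.

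Conversely, anti-PD-1 was added to each blocking mAb. Members with an unadjusted p under 0.05 were all higher, 4 of 9 on WT (Jak1, Irf8, Jak2 and Ifng; 16.6% of all genes were higher), 6 on FcD (Ido1, Ifng, Irf8, Socs1, Irf1 and Jak1; 13.0%) and 1 on anti-TGF-β (Socs1; 3.96%). In edgeR's model of all 40 tumors, 0 members had an adjusted p under 0.05. On FcD, Ifng and Ido1 did so with DESeq2, edgeR called 2 members when fitted on only the groups compared, and it called 3 without FcD combination tumor 2. Log2 fold changes of Ifng were 1.12 ± 0.47 on WT, 1.75 ± 0.48 on FcD and 0.90 ± 0.46 on anti-TGF-β (SE), where anti-TGF-β alone had the highest single-mAb mean. Fitted on only the groups compared, the counts were 7 on WT, 8 on FcD and 4 on anti-TGF-β. At an unadjusted p under 0.05, 5 of 8 macrophage and 4 of 4 cDC1 markers were higher on WT, and 1 of 4 NK markers was on anti-TGF-β. On FcD, 6 of 8 macrophage, 4 of 4 neutrophil and 4 of 4 adipocyte markers were higher, as were 3 of 4 cDC1 (median log2 fold change 1.42), 3 of 4 epithelial (2.53, with FcD combination tumor 4 at 342 CPM), 2 of 4 NK (0.70) and 2 of 8 T cell markers (0.81). Their part in the members' values was not tested. On WT the count of members became 2 without WT combination tumor 5, and on anti-TGF-β it became 5 without anti-TGF-β tumor 2 and 0 without anti-TGF-β tumor 3 or 5 or combination tumor 5. Ido1 differed within libraries 41 to 60 and 61 to 80 by 0.31 and 3.73 on FcD, and Ifng by 0.64 and 1.42 on WT, 1.32 and 2.16 on FcD, and 0.80 and 1.16 on anti-TGF-β (log2).

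The addition of anti-PD-1 was then taken over the 3 blocking mAbs. In this comparison Ifng, Irf8, Socs1, Ido1 and Irf1 passed edgeR's test in the model of all 40 tumors. It pooled 15 tumors against 15, whereas the pairwise comparisons above set 5 against 5. No such pooled comparison was made for adding a blocking mAb to anti-PD-1. Anti-PD-1 alone against isotype was not part of it (log2 fold change of Ifng 0.22 ± 0.49 SE). The mean of the 3 combinations (15 tumors) was set against the mean of the same 3 mAbs alone (15 tumors), and 5 of 9 members had an adjusted edgeR p under 0.05 and were higher, where 4.46% of all genes were. Ifng was 3.26 against 1.39 CPM (log2 fold change 1.26 ± 0.27 SE, adjusted p = 0.0202), Irf8 132 against 86.5 CPM (0.62 ± 0.15, 0.0274), Socs1 37.6 against 27.1 CPM (0.47 ± 0.12, 0.0286), Ido1 14.3 against 6.04 CPM (1.19 ± 0.31, 0.0319) and Irf1 408 against 283 CPM (0.53 ± 0.14, 0.0329). The ligand and response genes thus passed. The receptor and kinase genes did not pass: Ifngr1 (0.27 ± 0.12), Jak1 (0.25 ± 0.10), Jak2 (0.14 ± 0.07) and Ifngr2 (0.07 ± 0.07) had adjusted p between 0.113 and 0.474. At an unadjusted edgeR p under 0.05, 8 of 9 members were higher, all but Ifngr2, where 2151 of all 14760 genes were. Whether the 2 sets of members differed from each other was not tested. Arms overlapped for every member, as for all 14760 genes tested. Of the 15 combination tumors, 10 had more Irf1 than all 15 tumors given the mAb alone, 8 had more Ifng, 7 more Ido1, 6 more Socs1 and 2 more Irf8. Within libraries 41 to 60 and 61 to 80, respectively, the differences were 0.92 and 1.58 for Ifng, 0.50 and 0.63 for Irf1, 0.43 and 0.77 for Irf8, 0.36 and 0.65 for Socs1, and 0.41 and 1.75 for Ido1 (log2).

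The adjusted p of this comparison depended on single tumors more than the fold changes did. Ifng passed in 30 of 30 fits that each left out 1 of the tumors compared (log2 fold change 1.15 to 1.36), Irf8 in 25, Socs1 in 24, Ido1 in 22 and Irf1 in 19. The number of members called dropped to 1, Ifng, without WT combination tumor 5, without FcD tumor 5 or without anti-TGF-β tumor 1 or 3. It was 2 without WT tumor 4 or FcD combination tumor 1, and 3 without WT tumor 5 or anti-TGF-β combination tumor 5. It rose to 8, all but Ifngr2, without anti-TGF-β tumor 2. With all tumors but no filter on low counts, 1 member and 35 genes were called. Without both WT combination tumor 5 and FcD combination tumor 4, 0 members and 4 genes were called, with unadjusted p from 0.000193 (Ifng) to 0.0036 (Ido1) for the same 5 genes and log2 fold changes of 1.15 for Ifng, 0.57 for Irf1, 0.49 for Irf8, 0.50 for Socs1 and 0.85 for Ido1.

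**Figure D2:**
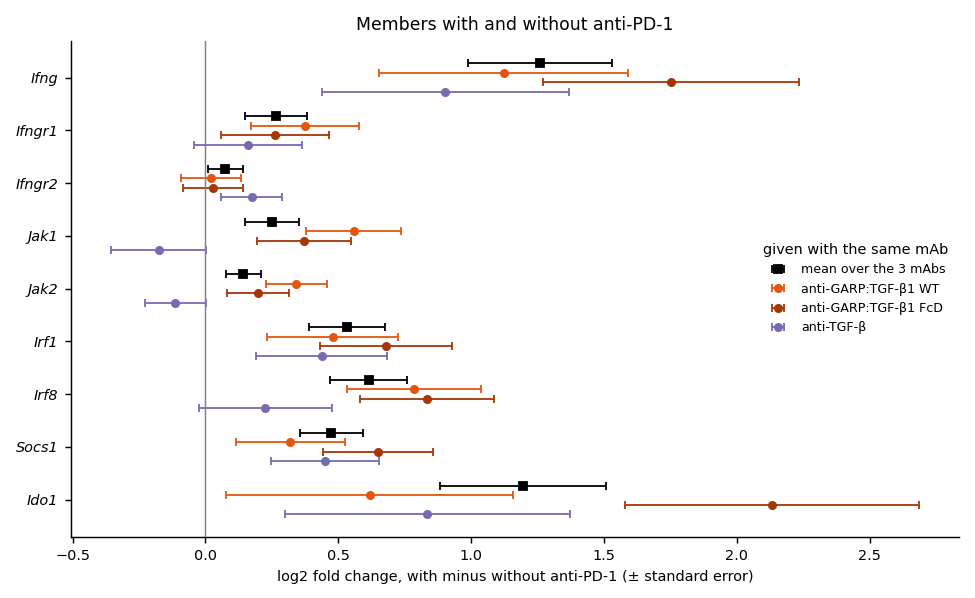
Log2 fold changes (± standard error) of the 9 members between tumors given a blocking mAb with and without anti-PD-1, for each mAb and for their mean (squares). The mean lies furthest from 0 for Ifng (1.26) and Ido1 (1.19), and the anti-TGF-β points of Jak1 and Jak2 lie below 0.

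The receptor chains differed little between groups. Ifngr1 (chr10:19591949-19610229), which binds the ligand, had group means from 62.3 to 82.3 CPM, and the highest, in the WT combination, rested on tumor 5 at 176 CPM while the other 4 tumors ran from 48.8 to 71.9 CPM. Without that tumor, the log2 fold change to the isotype control turned from higher to -0.14 ± 0.13 (SE). Ifngr2 (chr16:91547072-91565623), which completes the receptor, had group means from 65.7 to 79.2 CPM. It was 68.7, 85.0, 81.9, 77.9 and 82.4 CPM in the anti-TGF-β combination and 54.0, 69.9, 79.4, 61.1 and 64.4 CPM in the isotype group, so that 3 of 5 tumors lay above all isotype tumors. Against the WT combination without its tumor 5, Ifngr2 was 0.37 ± 0.10 higher in the anti-TGF-β combination (adjusted p = 0.0283), whereas with all tumors it was not called.

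**Figure D3:**
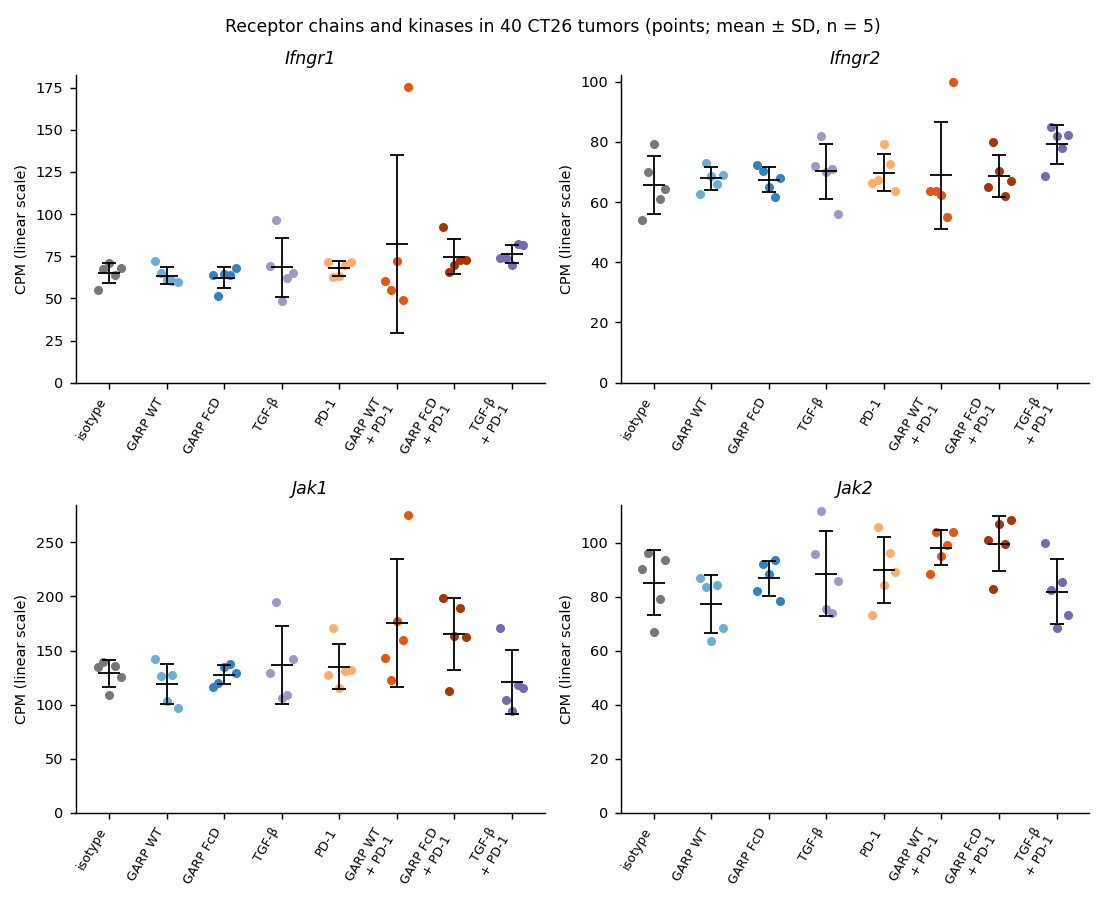
CPM on a linear axis of Ifngr1, Ifngr2, Jak1 and Jak2 in each of 40 tumors (points) by treatment group, with bars for mean ± SD (n = 5). The groups overlap, WT combination tumor 5 is the highest tumor for Ifngr1 (176 CPM), Ifngr2 (100.0 CPM) and Jak1 (275 CPM), and Jak1 is lower in 4 of 5 tumors of the anti-TGF-β combination than in the other combinations' medians.

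Levels of the kinase genes were compared between combinations. Jak1 (chr4:101152367-101265282) was 143, 123, 178, 160.0 and 275 CPM with the WT combination, 198, 112, 163, 190 and 163 CPM with the FcD combination, and 171, 105, 94.4, 118 and 116 CPM with the anti-TGF-β combination. The anti-TGF-β tumors were thus lower in 4 of 5 cases than every WT combination tumor. Jak1 was the member that passed the test between the anti-TGF-β and the WT combination (fell by 0.54 ± 0.18 on the log2 scale, adjusted p = 0.0362 in edgeR; 1 of 9 members, where 18.2% of all genes were called in either direction, so that the members' share was below that of all genes). The Jak1 difference was 0.01 within libraries 41 to 60 and -0.86 within libraries 61 to 80. Against the FcD combination 0 of 9 members passed (6.46% of all genes did), and Jak1 had a log2 difference of -0.45 ± 0.18. Jak2 (chr19:29251828-29313080), the partner on IFNGR2, had values in the same direction, -0.26 ± 0.12 and -0.28 ± 0.12. The call of Jak1 was lost without any 1 of WT combination tumors 3, 4 and 5 or anti-TGF-β combination tumors 2, 3, 4 and 5, and without WT combination tumor 5 its difference was -0.32 ± 0.16 (adjusted p = 0.176 in edgeR). Without anti-TGF-β combination tumor 1, 2 members were called.

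Transcript length moved with these values. For each library, the deviation of 9508 well expressed genes from their mean over all tumors was correlated with exon length (Spearman rho, the length trend). It was -0.44 to -0.66 in 4 of 5 anti-TGF-β combination tumors and 0.35 in the fifth, tumor 1, which also had the highest Jak1 of that group. It was -0.07 to 0.52 in the WT combination and 0.35 to 0.46 in 4 of 5 FcD combination tumors. FcD combination tumor 2, at -0.51, had the lowest Jak1 of its group. Exon length was 7227 bases for Jak1, 7055 for Irf8 and 5030 for Jak2. Over the 40 tumors, log2 CPM had a Pearson r with the length trend of 0.74 for Jak1 and 0.80 for Jak2, -0.53 for Ifngr2, 0.26 for Irf8, and -0.10 to 0.11 for Ifng, Ifngr1, Irf1, Socs1 and Ido1, as a description across libraries that share composition. With the length trend as a covariate, Jak1 was -0.19 ± 0.15 and Jak2 0.00 ± 0.08 between the anti-TGF-β and WT combinations, and 0 genes were called, while the 5 members called in the comparison of combinations with mAbs alone still passed. A treatment difference and a library difference cannot be told apart here, since 4 of the 5 tumors of the group have the trend.

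**Figure D4:**
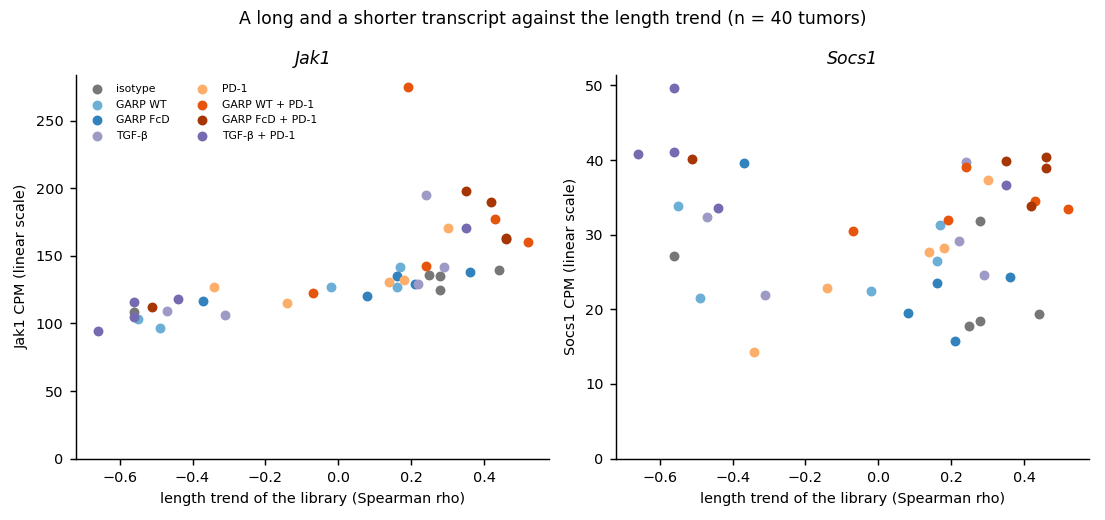
CPM (linear axis) of Jak1 and of Socs1, whose transcript is shorter, against the length trend of each library (Spearman rho between exon length and a gene's deviation), 40 tumors colored by group. Jak1 rises with the trend (r = 0.74 on log2 CPM) and 4 anti-TGF-β combination tumors lie at its low end, whereas Socs1 shows no such relation (r = -0.10). Irf8, not drawn, has 7055 bases of exon, close to Jak1 (7227), and an r of 0.26.

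Irf1 (chr11:53770014-53778374), an early interferon-γ target, was the most abundant member. It measured 463, 363, 419, 378 and 359 CPM with the WT combination, 428, 455, 409.8, 332 and 401 CPM with the FcD combination, and 399, 441, 401, 362 and 506 CPM with the anti-TGF-β combination. Isotype tumors had 358, 275, 339, 211 and 214 CPM, so that 14 of 15 combination tumors lay above all of them. Single mAbs had means from 253 to 311 CPM. The lowest tumors were anti-PD-1 tumor 1 (103 CPM) and anti-GARP:TGF-β1 FcD tumor 5 (124 CPM), which also had little Ifng (0.148 and 0.199 CPM).

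Irf8 (chr8:120736358-120756694), a factor of macrophages, B cells and dendritic cells as well as an interferon-γ target, separated less cleanly. It measured 111, 95.6, 132, 104 and 273 CPM with the WT combination, 182, 103, 130, 143 and 128 CPM with the FcD combination, and 142, 108, 94.1, 103 and 135 CPM with the anti-TGF-β combination. Isotype tumors ran from 67.6 to 100 CPM (median 83.0). The WT combination's value rested in part on tumor 5, without which the log2 fold change to isotype went from 0.80 to 0.43 ± 0.22 (SE), and that tumor also had the highest macrophage and cDC1 markers of all tumors (7970 and 151 CPM). Anti-TGF-β tumor 2, at 172 CPM of Irf8, had the second highest macrophage sum (4000 CPM). The part of these cells in the Irf8 result was not tested.

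Socs1 (chr16:10782240-10785536), the feedback inhibitor, was the member with the smallest unadjusted p against the isotype control in the FcD and anti-TGF-β combinations. It was 39.9, 40.1, 38.9, 33.8 and 40.4 CPM with the FcD combination and 36.7, 41.0, 40.8, 33.5 and 49.7 CPM with the anti-TGF-β combination, against 31.8, 19.4, 27.1, 17.8 and 18.4 CPM in isotype tumors. None of these 10 tumors overlapped with the isotype group. All 5 tumors were above all isotype tumors for 1.96% of all genes with the FcD and 1.73% with the anti-TGF-β combination. The WT combination had 39.1, 30.5, 34.5, 33.4 and 31.9 CPM, and 1 of its tumors fell within the isotype range.

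Ido1 (chr8:24584136-24597009) had the widest spread. It was 6.13, 9.88, 8.66, 61.8 and 15.1 CPM with the FcD combination, 8.31, 7.60, 11.5, 9.50 and 9.46 CPM with the WT combination, and 6.90, 11.8, 11.9, 11.8 and 24.2 CPM with the anti-TGF-β combination. Isotype tumors ran from 4.02 to 7.31 CPM. Tumor 4 of the FcD combination, the one with the highest epithelial, keratinocyte and adipocyte markers, carried much of its group's mean of 20.3 ± 23.4 CPM (SD, n = 5). Without it, the log2 fold change to isotype went from 1.84 to 0.81 ± 0.48 (SE), that to anti-PD-1 from 1.37 to 0.34 ± 0.48, and that to FcD alone from 2.13 to 1.10 ± 0.49. The difference between the FcD and WT combinations, 1.13 ± 0.53, became 0.11 ± 0.48. Epithelial, keratinocyte and adipocyte markers were highest in the tumor that carried the Ido1 value, and their part in it was not tested.

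The Fc format of the anti-GARP:TGF-β1 mAb, which decides whether it can bind Fcγ receptors, was compared in the presence of anti-PD-1. No member passed an adjusted p of 0.05 in edgeR or DESeq2 between the FcD and the WT combination, and Ido1 was the 1 member of 9 that was higher at an unadjusted p under 0.05 (0.813% of all genes were), through tumor 4 as above. Ido1 missed that threshold without WT combination tumor 1, 2 or 4 as well. The other members had log2 differences between -0.14 and 0.19. For Ifng, with its low counts, the difference was 0.12 ± 0.45 (SE), so that a difference of that size in either direction was not detectable.

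Whether a blocking mAb acted differently in the presence of anti-PD-1 was tested as an interaction. No gene passed an adjusted p of 0.05 in edgeR. At an unadjusted p under 0.05, 1 member was positive for WT (Irf8, 0.75 ± 0.36 SE; 4.30% of all genes), 3 were for FcD (Ido1, 1.66 ± 0.77; Ifng, 1.54 ± 0.68; Irf8, 0.80 ± 0.36; 2.45% of all genes) and 0 were for anti-TGF-β. These counts rested on single tumors. That of FcD became 0 without anti-PD-1 tumor 1 or 3 or FcD tumor 5, 1 without isotype tumor 1, and 5 without anti-PD-1 tumor 2 or FcD tumor 1. That of WT became 0 without any 1 of isotype tumors 1 and 2, anti-PD-1 tumors 1, 3 and 5, WT tumors 3, 4 and 5 or WT combination tumor 5, 2 without isotype tumor 3, WT tumor 1 or WT combination tumor 1 or 2, and 3 without anti-PD-1 tumor 2. That of anti-TGF-β became 1 without anti-PD-1 tumor 2. Without WT combination tumor 5 the Irf8 term of WT was 0.38 ± 0.31, and without FcD combination tumor 4 the Ido1 term of FcD was 0.63 ± 0.67. At an unadjusted p under 0.05, skeletal muscle markers had negative terms in 4, 3 and 4 of 4 cases for WT, FcD and anti-TGF-β (medians -5.54, -2.96 and -5.98), and 2 of 8 macrophage markers had positive terms for WT (0.75). Their part in the members' terms was not tested. Over all 8 groups at once, 6 of 9 members had an unadjusted p under 0.05 (Ifng, Socs1, Irf8, Ido1, Irf1 and Jak1; 24.7% of all genes did) and 0 an adjusted p under 0.05.

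Ifng was next set against transcripts of the T cell receptor complex, which are carried by T cells whether or not they are active. The log2 ratio of Ifng to the mean of Cd3d, Cd3e and Cd3g was -2.45 ± 0.35 in isotype tumors, -0.94 ± 0.36 with the anti-TGF-β combination, -1.12 ± 0.69 with the FcD combination, -1.57 ± 0.82 with the WT combination and -1.65 ± 1.01 with anti-PD-1 alone (SD, n = 5). With the anti-TGF-β combination all 5 tumors lay above all isotype tumors (difference 1.51 ± 0.22 SE; 2-sided exact permutation p = 0.00794, the smallest that 5 against 5 can give, 0.0794 adjusted over 10 comparisons). With the FcD combination 4 of 5 did (1.32 ± 0.35; exact p = 0.0238, adjusted 0.119), and with the WT combination 4 of 5 (0.88 ± 0.40; exact p = 0.0714, adjusted 0.238). With anti-PD-1 alone 4 of 5 tumors lay above all isotype tumors and 1 below all of them (0.79 ± 0.48; exact p = 0.143, adjusted 0.333). None of the 10 comparisons passed after adjustment. Against anti-PD-1 alone the differences were 0.72, 0.53 and 0.08 in the same order, with exact p from 0.167 to 0.881, and their signs differed between library sets (1.24 and -0.11, 0.92 and -0.05, and 1.37 and -1.25 in libraries 41 to 60 and 61 to 80). Within libraries 41 to 60 and 61 to 80 the differences to isotype were 1.499 and 1.515 for the anti-TGF-β, 1.18 and 1.57 for the FcD, and 1.62 and 0.38 for the WT combination. NK cells, which also make Ifng, are not covered by this ratio. NK markers summed to 56.5 to 141 CPM (median 97.5) with the anti-TGF-β combination and 29.1 to 68.5 CPM (median 43.7) in isotype tumors, with 2 of 4 higher at an unadjusted p under 0.05, Gzma (log2 fold change 1.38) and Ncr1 (0.65). The medians were 69.0 CPM with the FcD and 58.2 CPM with the WT combination. The part of NK cells in the ratio was not tested.

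Among tumors given the same treatment, the response genes varied together with the ligand. Deviations of log2 CPM from the group mean were compared over the 40 tumors, with tumors permuted within groups and p adjusted over all genes. Ifng had a Pearson r of 0.84 with Irf1 (Spearman rho 0.76), 0.76 with Socs1 (0.67), 0.74 with Irf8 (0.75) and 0.63 with Ido1 (0.53), with adjusted permutation p of 0.00068, 0.00068, 0.000453 and 0.0177. Jak2 (r = 0.46, rho = 0.44, adjusted permutation p = 0.0241) and Jak1 (r = 0.42, rho = 0.42, adjusted permutation p = 0.014) passed as well, while Ifngr1 (r = 0.28, rho = 0.27, permutation p = 0.0464, adjusted 0.125) and Ifngr2 (r = 0.23, rho = 0.26, permutation p = 0.148, adjusted 0.282) did not. Permutation p of rho were 1e-05 for Irf1, the smallest they can give, 2e-05 for Irf8, 8e-05 for Socs1, 0.00402 for Ido1, 0.00793 for Jak1, 0.011 for Jak2, 0.121 for Ifngr1 and 0.131 for Ifngr2. Of all 14759 other genes, 25.5% passed this test, and Irf1 ranked 40th, Socs1 131st, Irf8 177th and Ido1 459th by r. Without anti-PD-1 tumors 1 and 2, the farthest from the median of Ifng, r was 0.77, 0.66, 0.65 and 0.54 for Irf1, Socs1, Irf8 and Ido1. Within libraries 41 to 60 and 61 to 80 it was 0.87 and 0.79 for Irf1, 0.77 and 0.74 for Socs1, 0.77 and 0.69 for Irf8, and 0.74 and 0.66 for Ido1, but 0.62 and 0.18 for Jak2 and -0.01 and 0.43 for Ifngr2. Tumors of a group also differed in their cell markers, and the part of cell content in these correlations was not tested.

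**Figure D5:**
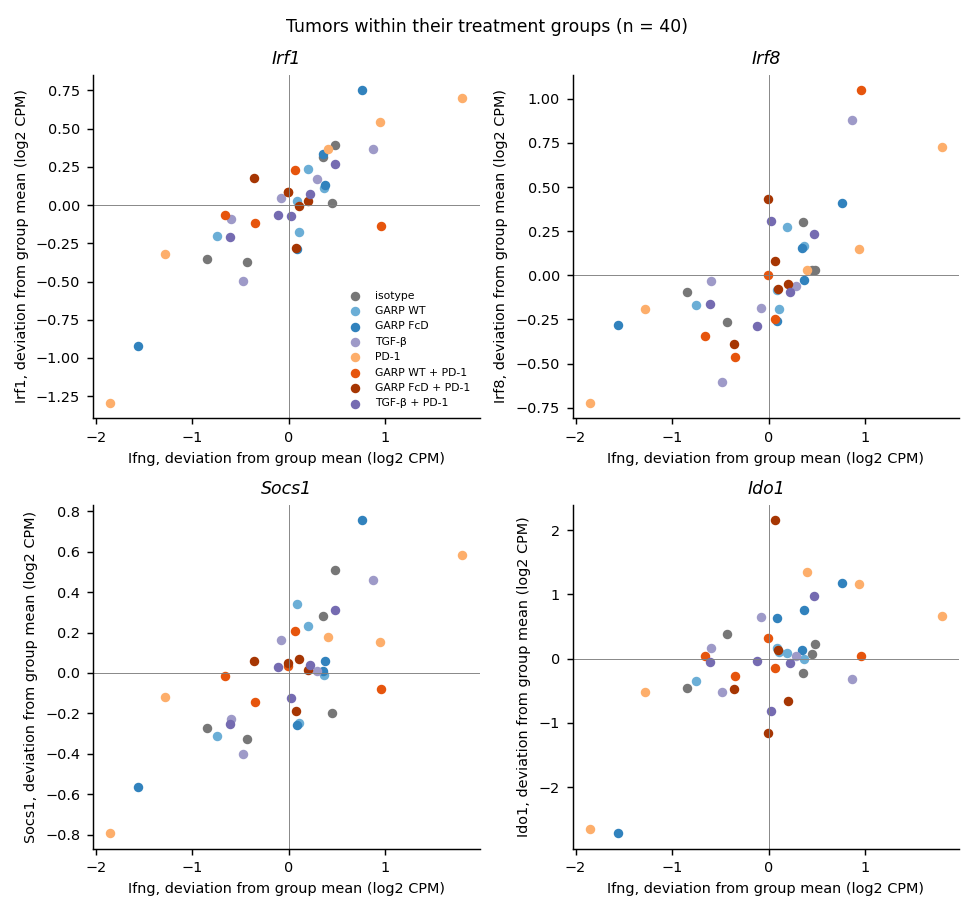
Deviation from the treatment group's mean (log2 CPM) of Irf1, Irf8, Socs1 and Ido1 against that of Ifng, 40 tumors colored by group. Points rise from lower left to upper right in all 4 panels (r = 0.84, 0.74, 0.76 and 0.63), and the lowest Ifng values belong to anti-PD-1 tumors and to 1 FcD tumor.

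The genes most like each member over the 40 tumors (Pearson r of log2 CPM, given as a description across libraries that share treatment, depth and cell content) were shared in part among Irf1, Socs1 and Ido1 and differed between the other members. Ifng was most like Serpina3g (0.95), Fam26f (0.94) and Samhd1 (0.93). Irf1 was most like Igtp, Irgm1 and Gbp3 (0.971, 0.965 and 0.965), which encode interferon-induced GTPases, and Socs1 was most like Irf1 itself (0.92), Igtp and Ly6a (0.90 each). Ido1 was nearest to Ly6a (0.82), the immunoproteasome subunit gene Psmb9 (0.81) and the nucleic acid sensor gene Zbp1 (0.80). Irf8 was most like Themis2 (0.97), Irf5 (0.97) and RP24-482L4.3 (0.96). Jak1 was nearest to Cbl (0.96), Akap13 (0.96) and Ankrd44 (0.96), Jak2 to Zcchc6 (0.90), Mnda (0.89) and AC121823.7 (0.89), Ifngr1 to Hsd17b11 (0.92), Slc25a45 (0.91) and Susd3 (0.91), and Ifngr2 to Tmem261 (0.83), Tmem50a (0.83) and Tmem9b (0.82). Among the members, r ran from 0.68 to 0.92 between any 2 of Ifng, Irf1, Socs1 and Ido1, whereas Ifngr2 had an r of -0.07 with Jak1 and -0.16 with Jak2.

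The wider pathway was read from lists in the comparison of the 3 combinations with the same mAbs alone, where 4.46% of all genes were called higher and the median log2 fold change of all genes was -0.01. Of 24 interferon-γ targets, 15 were called higher and 0 lower (median 0.59). They included Nos2, which makes nitric oxide (1.65 ± 0.32 SE, adjusted p = 0.0156), Cd274, which encodes PD-L1 (1.10 ± 0.24, 0.0202), the class II regulator Ciita (1.17 ± 0.36) with H2-Aa (1.03 ± 0.31) and Cd74 (0.93 ± 0.29), the GTPases Gbp2, Gbp3, Gbp5, Irgm1, Igtp and Iigp1 (0.59 to 0.78), Parp14 (0.60 ± 0.16), the chemokine genes Cxcl10 (0.44 ± 0.14) and Cxcl11 (0.58 ± 0.18), and B2m (0.21 ± 0.07). Cxcl9, a chemokine that draws CXCR3+ T cells, had a value of 0.58 ± 0.23 and did not pass (adjusted p = 0.0993).

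Among genes for STATs, other kinases and the type I receptor, Stat2 (0.42 ± 0.12) and Stat3 (0.30 ± 0.08) were called higher. Of 7 other IRFs, Irf5 (0.64 ± 0.17) and Irf7 (0.34 ± 0.10) were called higher (median 0.34), and Irf2, which competes with IRF1, was at 0.20 ± 0.07 and did not pass. Of 11 negative regulators, the cytokine feedback inhibitor Socs3 (0.27 ± 0.07) and the phosphatase gene Ptpn6 (0.58 ± 0.18) were called higher (median 0.13), and Ptpn1 (0.26 ± 0.09) was not. Of 11 tested inducers of Ifng, Il15 (0.41 ± 0.09, adjusted p = 0.0251), Il27 (0.76 ± 0.21) and Il12rb1 (0.48 ± 0.15) were called higher (median 0.48), all genes of cytokines or receptors that promote Ifng expression. Of 8 tested genes of tryptophan catabolism and transport, 0 were called higher and 1 lower, the amino acid transporter gene Slc7a5 (fell by 0.31 ± 0.10), and Ido2 (0.48 ± 0.17) and Haao (0.47 ± 0.21) did not pass. Between the anti-TGF-β and WT combinations, Stat6 and Jak3 were called lower and Cxcl10 higher, where 18.2% of all genes were called in either direction, and 0 genes were called with the length trend as a covariate. Against the isotype control 0 genes of these lists passed in edgeR. The lists' counts over the combinations depended on single tumors and on the filter, since the 961 genes of the whole table that were called became 4 without both WT combination tumor 5 and FcD combination tumor 4, and 35 without a filter on low counts. They became 52 without FcD tumor 5, 57 and 85 without anti-TGF-β tumors 1 and 3, 62 without FcD combination tumor 1 and 88 without WT combination tumor 5. In the other direction, they rose to 2851 without anti-TGF-β tumor 2.

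Cell marker lists moved in the same comparison. Macrophage markers summed to 1800 to 7970 CPM (median 2800) with the combinations and 1270 to 4000 CPM (median 1940) with the mAbs alone, and 4 of 8 were called higher (C1qa, C1qb, Cd68 and Fcgr1). NK markers summed to 48.4 to 141 CPM (median 72.9) against 24.4 to 64.8 CPM (median 46.2), with 1 of 4 called higher, Gzma. Markers of cDC1 summed to 27.3 to 151 CPM (median 42.9) against 15.6 to 80.3 CPM (median 30.3), with 2 of 4 called higher, Clec9a and Batf3. Neutrophil markers had 1 of 4 tested genes called higher, Csf3r (medians 64.5 and 30.2 CPM). T cell markers had sums of 21.2 to 299 CPM (median 49.7) against 14.4 to 146 CPM (median 50.1) and 0 of 8 called. Lists of B cells, pDC, mature DC, endothelium, fibroblasts, skeletal muscle, adipocytes, keratinocytes and carcinoma epithelium had 0 genes called, although 4 of 4 epithelial markers (median log2 fold change 1.66, with FcD combination tumor 4 at 342 CPM) and 3 of 4 keratinocyte markers (1.51) were higher at an unadjusted p under 0.05, as were 2 of 8 T cell markers (0.43). The part of these cells in the members' differences was not tested.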

How the data were processed

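The authors sequenced stranded mRNA libraries (100 bases, paired ends) of the 40 tumors, and per the submitters' processing notes and methods aligned reads to GRCm38 with STAR 2.5.3a, used SAMtools 1.6 and deposited raw counts per gene from HTSeq 0.9.1. The annotation release and strand setting are not given in the sources used here. Groups came from the sample labels, and whether tumors of a group shared a cage or day is not stated. Genes were filtered by filterByExpr, scaled by TMM and tested in 1 model of 40 tumors with edgeR 4.0.16 (robust quasi-likelihood F test, Benjamini-Hochberg over 14760 genes). Calls were made at an adjusted p of 0.05, and standard errors are |log2 fold change|/√F. Ratios and correlations used log2 CPM with a prior count of 2, exact permutation over tumors or 100000 permutations within groups. DESeq2 1.42.0, other scalings, no filter, only the groups compared, library sets and leaving out tumors were alternatives, and 2 were added after seeing the data: leaving out both WT combination tumor 5 and FcD combination tumor 4, and the length trend as a covariate. The tests were checked on simulated data. The 9 genes are all named, with the 3 most alike each, genes of the pathway lists (not of the cell marker lists) that passed the test in any comparison, the 3 with the smallest p per pathway list, and Cxcl9, except for an item that is not reported here. Members and lists were chosen with earlier results of these data known.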

Additional observations from a re-analysis of the deposited data

Results flagged for a closer look

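In 72 sets of 5 tumors (9 genes in 8 groups), a tumor was flagged 8 times because its gap to the nearest tumor was more than 0.71 of the set's range, where chance flags about 1 set in 20. WT combination tumor 5 was flagged high for Ifngr1 (175.5 CPM), Ifngr2 (99.97 CPM) and Irf8 (272.7 CPM), and it had the highest macrophage, T cell and endothelial markers of all tumors. FcD combination tumor 4 was flagged high for Ido1 (61.77 CPM) and low for Socs1 (33.78 CPM), and it had the highest epithelial, keratinocyte and adipocyte markers. FcD combination tumor 1 was flagged high for Ifngr1 (92.31 CPM). Anti-TGF-β tumor 2 was flagged high for Irf8 (172.3 CPM), and its macrophage sum of 4000 CPM was the highest after that of WT combination tumor 5. Anti-GARP:TGF-β1 FcD tumor 2 was flagged low for Ifngr1 (51.29 CPM). The part of these cell markers in the flagged values was not tested.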

How the results depend on the processing

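Member fold changes with an unadjusted p under 0.05 in their comparison numbered 54. Of 1118 alternative values of these, 1039 kept direction and side of the threshold, 50 lost and 28 gained the call, and Jak2 between the anti-TGF-β and WT combinations went from -0.26 to 0.00 with the length trend. The other member fold changes are not in these counts, and some changed sign with 1 tumor left out (against isotype, Ifngr1 in the WT combination from 0.34 to -0.14, and with FcD alone Irf1 ran from -0.37 to 0.03 and Ido1 from -0.57 to 0.01). Members called over the 3 combinations numbered 5, but 1 without a count filter, 0 without both WT combination tumor 5 and FcD combination tumor 4 and 1 to 8 with 1 tumor left out (the tumors are named in the report). Between the anti-TGF-β and WT combinations, 1 became 0 without a filter, with the length trend or with only these groups fitted, and 0 to 2 with 1 tumor left out. In the FcD combination, 0 became 3 against isotype with only these groups fitted, and against FcD alone 2 with only these groups or with DESeq2 and 0 to 3 with 1 tumor left out (3 without FcD combination tumor 2). Against isotype, the anti-TGF-β combination had 1 with DESeq2 and 0 to 2 with 1 tumor left out (2 without its tumor 1, 1 without isotype tumor 3). With 1 tumor left out, counts ran from 0 to 2 for the WT combination against anti-PD-1 (without anti-PD-1 tumor 2) and against WT alone (without WT combination tumor 2), 0 to 1 for the anti-TGF-β combination against anti-PD-1 (without its tumor 1), 0 to 2 against the FcD combination (without FcD combination tumor 2 or its own tumor 1), and 0 to 5 over all 8 groups (without anti-PD-1 tumor 2, anti-TGF-β tumor 2, FcD combination tumor 2 or anti-TGF-β combination tumor 1). The log2 ratio of Ifng to Cd3 genes, with 1 tumor left out, ran from -0.042 to 0.196 for WT against isotype (-0.027 and -0.020 without WT tumors 4 and 5, -0.042 without isotype tumor 4), 0.516 to 1.188 for anti-PD-1 (highest without its tumor 1), 0.644 to 1.188 for the WT combination (highest without its tumor 5), 1.172 to 1.616 for the FcD combination (highest without its tumor 1), and -0.312 to 0.396 for the WT combination against anti-PD-1 (-0.312 without anti-PD-1 tumor 1, -0.043 and -0.147 without its own tumors 1 and 2). Within library sets it was 1.622 for anti-PD-1 against isotype (61 to 80), 1.625 for the WT combination against isotype (41 to 60), 1.367 and -1.247 for the WT combination against anti-PD-1 (41 to 60 and 61 to 80) and -0.107 for the anti-TGF-β combination against anti-PD-1 (61 to 80). The correlation of Ifng with Ifngr2 was -0.01 in libraries 41 to 60. The cause of these changes was not tested. No paired analysis was possible because the labels carry no replicate numbers that tie tumors across groups. Low counts of Ifng and Ido1 limit their precision.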
